A study of Mus musculus with 20 samples.

Results

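In Ash2l-floxed mouse embryo fibroblasts, 1508 regions of histone H3 lysine 4 monomethylation (H3K4me1) wholly contained at least 1 promoter region of trimethylation (H3K4me3). They were found by coordinates alone: an H3K4me1 region counted as a member when both ends of a promoter H3K4me3 region lay within it, and no read count entered the choice. The members were 1.29% of 117165 H3K4me1 regions and contained 1639 of 15584 promoter H3K4me3 regions, 10.52%. The region borders were called on these same libraries, including those of treated cells, so the width of a member is not independent of its H3K4me1 signal.

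Immortalized mouse embryo fibroblast lines with floxed Ash2l alleles and a Cre-ER recombinase, KO1 (iMEF1) and KO2 (iMEF2), were treated with 5 nM 4-hydroxytamoxifen for 5 days (+HOT), which makes Cre-ER delete part of Ash2l, or with ethanol as vehicle (-HOT). Both conditions carry the floxed alleles, Cre-ER and the short hairpin RNA against Arf used for immortalization, and each line is a single immortalized culture. For each mark there was 1 library of +HOT and 1 of -HOT cells per line, so the 2 lines are the replicates. The p-values rest on the spread between lines pooled over regions, wholly for H3K4me3 and mostly for H3K4me1. A low p-value at a region thus does not show that the lines agreed there. Libraries of WT cells and of input chromatin stayed out, so an effect of HOT by itself and the loss of Ash2l cannot be told apart in these values. For H3K4me1, KO1 had 7939532 (+HOT) and 6157647 (-HOT) reads within its regions, and KO2 had 9048056 (+HOT) and 7156632 (-HOT). For H3K4me3, KO1 had 2441698 (+HOT) and 6116382 (-HOT), and KO2 had 6978481 (+HOT) and 17708078 (-HOT). The Ash2l promoter, not a member, had 281 and 976 scaled reads of H3K4me3 in +HOT cells of KO1 and KO2, against 469 and 1839 in -HOT cells, which does not check the deletion. Of 10 fibroblast markers, all 10 had promoter H3K4me3 over 20 scaled reads in -HOT cells of both lines, against 0 of 5 leukocyte, 1 of 5 endothelial, 2 of 5 epithelial and 2 of 5 neural markers.

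KMT2 complexes, of which Ash2l is a shared core subunit, add methyl groups to lysine 4 of histone H3. H3K4me3 marks active promoters, where it usually peaks around the transcription start site (TSS). H3K4me1 is typical of enhancers and of the flanks of promoters, and at an active promoter it is usually low where H3K4me3 is high. A member is thus a promoter, or a small H3K4me3 region near one, that a single called H3K4me1 region spans from side to side.

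The windows of 7 named members are shown because their values recur below. Each runs from 250 bases before to 50 bases after the GENCODE TSS inside the contained H3K4me3 region, 5′ to 3′ along the gene, read from the mm9 (NCBIM37) genome. Capitals mark matches on either strand to 7 motifs: the GC box GGGCGG, the CCAAT box, the TATA box TATAAA, the AP1 site TGANTCA, the CRE TGACGTCA, the E-box CACGTG and the ETS core GGAAGT. Atad5, Tagln2 and Tmem203 come from the members with the largest H3K4me1 rise, Etv4, Pla2g7 and Il6ra from those with the largest H3K4me3 fall, and Gsn is the widest member.
Atad5 (chr11:79902994-79903293, plus strand): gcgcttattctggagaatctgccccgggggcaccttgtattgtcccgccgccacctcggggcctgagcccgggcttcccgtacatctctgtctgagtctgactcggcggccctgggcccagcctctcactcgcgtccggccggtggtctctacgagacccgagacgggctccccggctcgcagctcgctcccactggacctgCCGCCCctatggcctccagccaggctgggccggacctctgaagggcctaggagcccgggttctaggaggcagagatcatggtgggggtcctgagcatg
Tagln2 (chr1:174431133-174431432, plus strand): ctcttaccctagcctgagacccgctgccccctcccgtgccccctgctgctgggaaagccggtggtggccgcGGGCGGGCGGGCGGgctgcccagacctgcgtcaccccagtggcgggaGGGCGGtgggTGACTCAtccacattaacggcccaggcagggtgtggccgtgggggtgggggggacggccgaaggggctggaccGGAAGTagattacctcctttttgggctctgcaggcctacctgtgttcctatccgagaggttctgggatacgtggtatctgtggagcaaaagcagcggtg
Tmem203 (chr2:25110775-25111074, plus strand): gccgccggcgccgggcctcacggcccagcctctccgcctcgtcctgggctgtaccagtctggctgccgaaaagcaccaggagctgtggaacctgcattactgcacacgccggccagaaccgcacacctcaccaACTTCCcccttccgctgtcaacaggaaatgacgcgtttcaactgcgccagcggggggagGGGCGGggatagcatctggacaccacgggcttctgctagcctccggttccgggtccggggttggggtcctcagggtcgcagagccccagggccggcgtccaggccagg
Etv4 (chr11:101646126-101646425, minus strand): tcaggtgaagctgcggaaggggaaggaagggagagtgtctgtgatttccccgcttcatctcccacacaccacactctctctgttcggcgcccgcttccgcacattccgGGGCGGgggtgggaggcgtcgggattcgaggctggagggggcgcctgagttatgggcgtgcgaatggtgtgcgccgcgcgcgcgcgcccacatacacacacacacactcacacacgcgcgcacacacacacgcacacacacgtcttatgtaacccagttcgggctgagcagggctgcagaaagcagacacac
Pla2g7 (chr17:43705174-43705473, plus strand): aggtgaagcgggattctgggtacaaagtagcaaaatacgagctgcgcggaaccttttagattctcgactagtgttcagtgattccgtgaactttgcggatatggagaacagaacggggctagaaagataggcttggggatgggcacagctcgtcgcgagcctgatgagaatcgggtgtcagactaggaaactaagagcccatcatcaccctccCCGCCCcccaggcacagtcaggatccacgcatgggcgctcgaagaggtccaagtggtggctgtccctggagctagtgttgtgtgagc
Il6ra (chr3:89717035-89717334, minus strand): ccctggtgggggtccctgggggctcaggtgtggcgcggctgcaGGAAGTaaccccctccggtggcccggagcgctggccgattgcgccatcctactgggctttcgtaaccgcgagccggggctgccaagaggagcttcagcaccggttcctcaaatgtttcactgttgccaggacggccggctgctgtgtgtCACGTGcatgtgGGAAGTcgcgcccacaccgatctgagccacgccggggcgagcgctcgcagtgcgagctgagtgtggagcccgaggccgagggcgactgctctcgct
Gsn (chr2:35111688-35111987, plus strand): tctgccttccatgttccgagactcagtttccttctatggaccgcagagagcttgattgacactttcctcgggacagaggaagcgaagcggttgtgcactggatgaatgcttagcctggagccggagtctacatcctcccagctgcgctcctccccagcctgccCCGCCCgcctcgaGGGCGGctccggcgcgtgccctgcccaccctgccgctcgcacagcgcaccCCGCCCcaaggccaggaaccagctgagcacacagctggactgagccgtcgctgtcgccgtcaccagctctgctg
The number of CpG in these 300 bases was 22 at Atad5, 19 at Tagln2, 24 at Tmem203, 27 at Etv4, 16 at Pla2g7, 28 at Il6ra and 22 at Gsn. A motif match is a description of the letters and not evidence that a factor binds.

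Members were wide, and the H3K4me3 inside them was narrower than elsewhere, which the rule itself favours. A wide H3K4me1 region contains an H3K4me3 region more readily, and a narrow H3K4me3 region is more readily contained. The median width of a member was 2761.5 bp (233 to 17110 bp), against 772 bp for all H3K4me1 regions. The contained H3K4me3 regions had a median width of 1566 bp, against 1762.5 bp for the 13414 other promoter H3K4me3 regions that could be assessed. Of the members, 1397 contained 1 promoter H3K4me3 region, 94 contained 2, 14 contained 3 and 3 contained 4. The share of a member's width covered by its contained H3K4me3 ranged from 2.27 to 98.1%, with a median of 62.2%. It was at most 33.3% in 380 members, 33.3 to 66.7% in 450 and over 66.7% in 678.

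The covered share separated different arrangements. Its classes differ in H3K4me3 width partly by definition, as the share is the contained H3K4me3 width over the width of the member. In members covered over 66.7%, the strongest contained H3K4me3 region held its TSS in 643 of 678 (94.8%), and its median width was 2085.5 bp. In members covered at most 33.3%, it held its TSS in 85 of 380 (22.4%), its median width was 343 bp and its median distance to the TSS was 1141.5 bp. Of these 380, 195 (51.3%) also overlapped a further H3K4me3 region in part, against 11 of 678 (1.62%) of the most covered members. In 191 of the 195, the region that ran out of the member was wider than the strongest contained one, with medians of 2458 and 298 bp. In the 1005 members with a single contained region that held its TSS, H3K4me1 reached a median of 296 bp beyond it upstream (quartiles 124 and 642 bp) and 328 bp downstream (139 and 666 bp), with the longer side downstream in 54.0%.

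**Figure D1:**
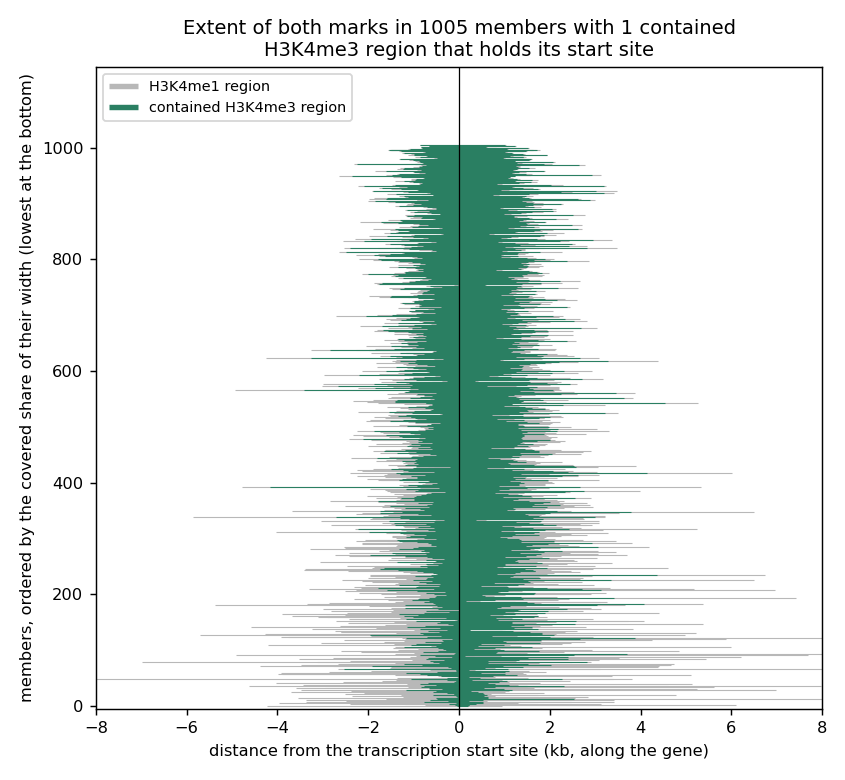
Extent of H3K4me1 (grey) and of the contained H3K4me3 region (green) around the TSS, in kb along the gene, for the 1005 members with 1 contained region that held its TSS, 1 member per line and ordered by covered share (lowest at the bottom). The green band fills most of the members at the top, the grey flanks lengthen on both sides toward the bottom, and 5 members run past the 8 kb limit.

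At most members +HOT cells of both lines had more H3K4me1 than -HOT cells. The median level in scaled reads was 175 for +HOT and 97 for -HOT cells of KO1, and 211 for +HOT and 120 for -HOT cells of KO2. In bulk chromatin, a change in fewer cells and a smaller change in all cells cannot be told apart. A scaled read is a read divided by the factor that brings a library to the lowest coverage of its line. The median log2 ratio was 0.81 in KO1 and 0.74 in KO2, with values above 0 in 94.0 and 91.0% of the tested members. Over all tested H3K4me1 regions the medians were 0.30 in KO1 and 0.08 in KO2. Of the 1508 members, 1497 exceeded 20 scaled reads in at least 1 condition of each line and were tested. In both lines, 1 passed through its +HOT values alone and 7 through their -HOT values alone. H3K4me1 rose at 823 of the 1497 (55.0%) and fell at 14 (0.935%), while 660 did not pass (limma with a term for line on log2(value + 1), adjusted by Benjamini-Hochberg over all regions, threshold 0.05). Among all 78691 tested H3K4me1 regions, 14.8% rose and 2.57% fell.

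Relative to the median log2 ratio of all tested regions, set to 0 in each line, 430 of 1497 members rose and 16 fell. Of all tested H3K4me1 regions, 9.59% rose and 3.45% fell in that setting. Without the line as a block, 122 of 1497 members rose, against 6.37% of all regions. With no read minimum 95 of 1508 did, against 4.25% of all regions. Both lines moved alike in most members: +HOT was above -HOT in both lines in 1338 members and below in both in 68. Across the 1497 tested members, the log2 ratios of the lines had a Pearson r of 0.732 and a Spearman correlation of 0.701, which describes regions that share libraries and are not independent replicates.

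Over all widths, H3K4me1 rose at a share of members close to that of H3K4me1 regions overlapping a promoter H3K4me3 region in part. This share was below that of regions lying inside one. By width, 6.15% of members against 24.2% of regions with partial overlap rose up to 1000 bp, and 40.3 against 66.5% from 1000 to 2000 bp. From 2000 to 3000 bp the shares were 63.7 and 65.9%, from 3000 to 4000 bp 60.4 and 54.0%, and above that 57.2 and 48.2%. H3K4me1 rose at 4452 of 4910 tested regions inside a promoter H3K4me3 region (90.7%), at 4492 of 8372 with partial overlap (53.7%) and at 1871 of 63912 with no promoter H3K4me3 (2.93%). The median log2 ratios were 1.63 in KO1 and 1.75 in KO2 inside, 0.81 and 0.75 with partial overlap, and 0.23 and 0.00 with none. Falls were fewer among all members, at 0.935%, than among regions with partial overlap, at 387 of 8372 (4.62%). Among regions of at most 1000 bp the shares were 16.9 and 15.3%. Of the tested regions inside H3K4me3, 2013 of 4910 passed the minimum through +HOT alone in both lines, so their high share of rises is partly fixed by the filter. These are descriptions of sets of regions, since 2 lines, each giving both sets, allow no two-sided exact permutation p below 0.5. At the border of the rule, 264 members cleared their contained H3K4me3 by no more than 50 bp at the nearer end, with no limit at the other. A further 349 non-members missed by no more than 50 bp. Their median log2 ratios were 0.89 in KO1 and 0.89 in KO2 for these members, and 0.92 and 0.86 for the non-members.

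The sets differed in H3K4me1 per kb in both conditions. H3K4me1 per kb of region had a median of 64.0 in +HOT and 36.6 in -HOT cells of KO1 in the members, and of 76.2 and 45.5 in KO2. Inside promoter H3K4me3 it was 57.5 in +HOT and 20.3 in -HOT cells of KO1, and 77.0 and 25.1 in KO2. With no promoter H3K4me3 it was 54.8 in +HOT and 48.5 in -HOT cells of KO1, and 50.2 and 55.6 in KO2. In KO1 the medians of the 4 sets ranged from 54.8 to 64.0 per kb in +HOT and from 20.3 to 48.5 in -HOT cells. In KO2 both ranges were wide, from 50.2 to 77.0 in +HOT and from 25.1 to 55.6 in -HOT cells.

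Within the members, H3K4me1 rose most often where H3K4me3 covered most of the region. It rose at 549 of 673 tested members covered over 66.7% (81.6%), at 172 of 446 covered 33.3 to 66.7% (38.6%) and at 102 of 378 covered at most 33.3% (27.0%). By edgeR, which called more members, the shares were 92.3, 65.2 and 57.1% (621, 291 and 216 members), beside 18.8% of all tested H3K4me1 regions. With more than 50 scaled reads required they were 94.2, 65.4 and 48.6%, beside 25.8% of all regions. With the median of all regions set to 0 they were 47.0, 15.5 and 11.9%, beside 9.59% of all regions. The order of the 3 classes thus held in these settings, while the distance between them moved. These settings all share the same region borders, which were called on these libraries, including those of +HOT cells. The covered share is therefore not independent of the H3K4me1 change, and the order may be partly built in by the rule. The median log2 ratios were 1.02 in KO1 and 0.96 in KO2 for the most covered members, 0.68 and 0.54 for the middle ones, and 0.58 and 0.42 for the least covered. In steps of 10%, the share that rose was lowest at 20 to 30% covered (20 of 104) and highest at 90 to 100% (95 of 105). The median H3K4me1 level in +HOT cells was 61.2, 67.9 and 68.7 scaled reads per kb in KO1 from the most to the least covered members, and 75.9, 77.0 and 77.2 in KO2. In -HOT cells it was 30.4, 42.1 and 46.6 in KO1, and 39.1, 52.2 and 58.5 in KO2. In -HOT cells the most covered members thus had the least H3K4me1 per kb, and in +HOT cells the 3 sets lay closer together in both lines.

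**Figure D2:**
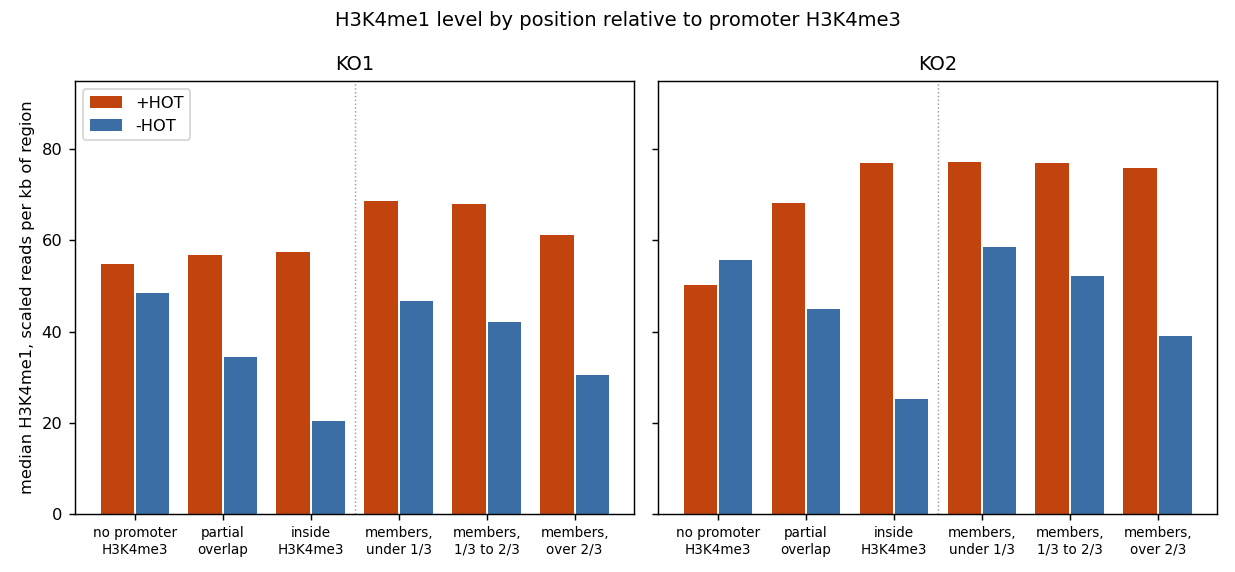
Median H3K4me1 level in scaled reads per kb of region for +HOT (orange) and -HOT cells (blue), in KO1 and KO2, by position relative to promoter H3K4me3 and, right of the dotted line, for members with at most 33.3%, 33.3 to 66.7% and over 66.7% of their width covered. The +HOT bars of the members lie between 61.2 and 68.7 in KO1 and between 75.9 and 77.2 in KO2, while the -HOT bars decrease as the covered share increases.

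**Figure D3:**
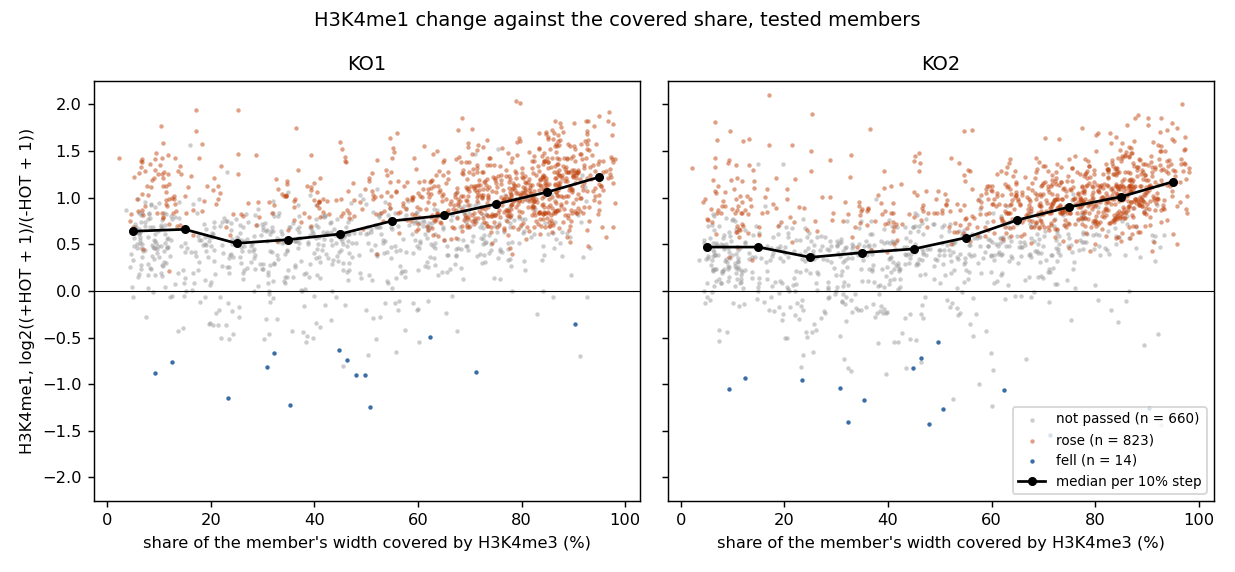
H3K4me1 log2 ratio of each tested member in KO1 and KO2 (y axis) against the share of its width covered by contained H3K4me3 in percent (x axis), coloured by call, with the median of each 10% step in black. The black medians are 0.51 in KO1 and 0.36 in KO2 at 20 to 30% covered, and 1.22 and 1.17 at 90 to 100%.

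Across the 1497 members, covered share and H3K4me1 log2 ratio had a Spearman correlation of 0.454 in KO1 and 0.524 in KO2 (Pearson r of 0.396 and 0.439). As the borders were called on these libraries, this correlation may also be partly built in. The relation moved with other features of the same regions. Of members whose strongest H3K4me3 region is on the authors' list of high level in KO2, 455 of 549 rose (82.9%), against 271 of 533 of medium (50.8%) and 97 of 415 of low level (23.4%). Within the members covered over 66.7%, 378 of 424 of high level rose (89.2%) and 168 of 237 of medium level (70.9%). Within those covered at most 33.3% the order by level was not seen, at 1 of 6 of high, 17 of 51 of medium (33.3%) and 84 of 321 of low level (26.2%). The level is that of the contained region alone, and 182 of the 323 of low level there (56.3%) also overlapped a further H3K4me3 region in part. With an observed to expected CpG ratio of at least 0.6 around the TSS, 540 of 816 rose (66.2%), against 283 of 681 below it (41.6%), and within the most covered members these shares were 83.5 and 77.1%. In the least covered members they were 39.9 and 17.7%. There the 2 CpG groups also differed in arrangement, as 79.2 and 31.2% overlapped a further H3K4me3 region in part. Their strongest contained region held its TSS in 8.18 and 32.6%. The parts of covered share, level, CpG content and further H3K4me3 regions in the change were not tested.

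The contained H3K4me3 regions lost signal in both lines. Their median level in scaled reads was 64.0 for +HOT and 172 for -HOT cells of KO1, and 190 in +HOT and 768 in -HOT cells of KO2. Of the 1639 regions, 1139 passed the read minimum in both lines, 23 of them through -HOT alone in both. Others, such as those of Wnt10b and Igfbp6, passed through -HOT alone in KO1, which partly fixes a fall there. H3K4me3 fell at 1026 of the 1139 regions (90.1%), 113 did not pass, and 0 rose by limma (0 also at an unadjusted p under 0.05 and 0 by edgeR). Among all 16129 tested H3K4me3 regions, 86.5% fell and 0.0744% rose. The median log2 ratio of the tested contained regions was -1.01 in KO1 and -1.48 in KO2, and that of the 11925 other tested promoter regions -1.0 and -1.46. Setting the median of all tested H3K4me3 regions to 0 in each line shifts KO1 by 1.06 and KO2 by 1.63 on the log2 scale. In that setting 66 of the 1139 contained regions rose and 148 fell, while 23.2% of all tested H3K4me3 regions fell. The values were scaled to total coverage without an external standard, so a change shared by most regions depends on that scaling. Without the line as a block limma called 0 (16 fell at an unadjusted p under 0.05), as in 0.0% of all H3K4me3 regions. With the block, edgeR called falls at 1084, beside 94.7% of all tested H3K4me3 regions. The -HOT level in scaled reads per kb was lower in contained than in other promoter regions in both lines, at 96.3 against 140 in KO1 and 440 against 542 in KO2.

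A rise of H3K4me1 with a fall of H3K4me3 was the most common pair of calls. Of 1115 members tested in both marks, taking the strongest contained H3K4me3 region of each, 654 (58.7%) had both. As H3K4me3 fell at 90.1% of the members tested for it, most rises of H3K4me1 would pair with a fall in any case. A link between the 2 calls was not tested. A further 350 had a fall of H3K4me3 with H3K4me1 not passing, 82 a rise of H3K4me1 with H3K4me3 not passing, and 27 passed in neither. Reads per kb of H3K4me1 over those of H3K4me3 had a median of 1.44 in +HOT and 0.33 in -HOT cells of KO1, and of 0.609 in +HOT and 0.0954 in -HOT cells of KO2. The 2 marks come from different antibodies and libraries, so only the change of this ratio within a line can be read. A larger fall of H3K4me3 did not go with a larger rise of H3K4me1 over members: their log2 ratios had a Spearman correlation of 0.0812 in KO1 and 0.34 in KO2 (Pearson r of 0.0939 and 0.33, n = 1115), a description across regions. H3K4me3 fell at 580 of 662 tested members covered over 66.7% (87.6%), where the medians were -0.96 for KO1 and -1.28 for KO2, and at 82 of 84 covered at most 33.3% (97.6%), with -1.06 and -2.0.

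Among members with at least 50 scaled reads of both marks in both lines, the 8 largest H3K4me1 rises were at promoters with 70.4 to 96.8% of the member covered by contained H3K4me3. Atad5, which unloads the PCNA clamp from replicated DNA, had 166 and 206.4 scaled reads of H3K4me1 in +HOT cells of KO1 and KO2, against 43.0 and 51 in -HOT cells. Its member (chr11:79902455-79904290, 1836 bp, 96.8% covered) had the largest mean log2 ratio of the named rises (1.96 with a standard error of 0.238, adjusted p = 1.8e-05 from limma). Its H3K4me3 was 162 and 582 in +HOT and 358.6 and 1343.6 in -HOT cells, so the marks moved in opposite directions in both lines. Tagln2, an actin-binding transgelin, had 381 and 451.8 reads of H3K4me1 in +HOT against 112 and 125 in -HOT cells (chr1:174429480-174434096, 87.6% covered, mean log2 ratio 1.80, adjusted p = 3.9e-05 from limma). Tmem203 had 213 and 280.9 in +HOT against 57.0 and 80 in -HOT cells (chr2:25109913-25112067, 94.9% covered, mean log2 ratio 1.84, adjusted p = 3.2e-05 from limma). In these 3 members both +HOT values lay above both -HOT values. The other 5 were Tnrc6b, a scaffold of microRNA silencing (1.75), Pcgf1, a subunit of a Polycomb repressive complex 1 (1.74), Sap30bp (1.72), Stub1, a ubiquitin ligase that works with chaperones (1.71), and Dysf, dysferlin of membrane repair (1.69). H3K4me3 fell at all 8, with mean log2 ratios from -0.83 (Tmem203) to -1.58 (Dysf), beside falls at 90.1% of all members tested for it and at 86.5% of all tested H3K4me3 regions. With the median of all regions set to 0, the H3K4me3 ratio turned above 0 at 7 of the 8, all but Dysf.

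The members with the largest H3K4me3 falls had H3K4me1 mean log2 ratios of 0.26 to 1.49, and H3K4me1 rose at 7 of these 8. Rises were called at 55.0% of all tested members and at 14.8% of all tested H3K4me1 regions, so this count does not set the 8 apart. Etv4, an ETS transcription factor of the PEA3 subfamily, had 44 and 101 scaled reads of H3K4me3 in +HOT cells of KO1 and KO2, against 239.3 and 936.6 in -HOT cells (-2.81 as mean log2 ratio with a standard error of 0.391, adjusted p = 9.4e-11 from limma). Its H3K4me1 was 195 and 200.0 in +HOT against 122 and 93 in -HOT cells (chr11:101644476-101647575, 67.0% covered, mean log2 ratio 0.88, adjusted p = 0.017 from limma). Pla2g7, an acetylhydrolase of platelet-activating factor, had 20 and 52 reads of H3K4me3 in +HOT against 108 and 431.7 in -HOT cells, and 183 and 160.0 of H3K4me1 against 56.0 and 65 (chr17:43704221-43706207). Its H3K4me1 rise (mean log2 ratio 1.49) was the largest of these 8. Il6ra, the ligand-binding subunit of the interleukin-6 receptor, had 22 and 51 reads of H3K4me3 in +HOT against 109.5 and 458.4 in -HOT cells (-2.70), with 157 and 160.9 of H3K4me1 against 82.0 and 105 (0.77, chr3:89715664-89717791). The others were Fxyd5, a regulator of the sodium pump (H3K4me3 -2.67, H3K4me1 1.16), Mcc (-2.65 and 0.77), Atxn7l1 (-2.65 and 1.21), Tob1, an antiproliferative protein (-2.63 and 0.86), and Dlc1 (-2.61 and 0.26). In KO1, Pla2g7, Fxyd5, Mcc, Tob1 and Dlc1 had at most 20 scaled reads of H3K4me3 in +HOT cells. There they passed the read minimum through -HOT alone, which partly fixes the direction of their fall. At Dlc1 H3K4me1 was 56.0 and 79.1 in +HOT against 56.0 and 55 in -HOT cells and did not pass (adjusted p = 0.55 from limma). Tob1 differs in arrangement, as its contained region of 29.2% of the width lies at -1565 bp from the TSS and the member overlaps another H3K4me3 region in part.

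Like most members, those with the smallest H3K4me3 change mostly had higher H3K4me1 in +HOT cells. Their calls stand beside rises at 55.0% of all tested members and at 14.8% of all tested H3K4me1 regions. Xaf1, an interferon-inducible partner of XIAP, had 86 and 120 scaled reads of H3K4me3 in +HOT cells of KO1 and KO2, against 66.0 and 225.7 in -HOT cells, so the lines moved in opposite directions. Its H3K4me1 was 130 and 99.1 in +HOT against 45.0 and 55 in -HOT cells (mean log2 ratio 1.17, adjusted p = 0.0029 from limma). Tmbim4 had 259 and 697 reads of H3K4me3 in +HOT against 323.3 and 1290.1 in -HOT cells, and 108 and 180.0 of H3K4me1 against 42.0 and 59 (mean log2 ratio 1.47). Ifitm3, which restricts the entry of viruses, had 272 and 615 reads of H3K4me3 in +HOT against 286.6 and 1216.8 in -HOT cells, and H3K4me1 rose (1.06). H3K4me1 also rose at Rint1 (0.98), Vwa5a (1.03) and Ccdc97 (0.82). It did not pass at Pfdn1, a prefoldin subunit (0.66), and at Trabd2b (-0.19), where it was 104 and 116.4 in +HOT against 127 and 125 in -HOT cells. The H3K4me3 mean log2 ratios of the 8, which were chosen for being small, ran from -0.60 to -0.26, and all turned above 0 with the median of all regions set to 0.

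**Figure D4:**
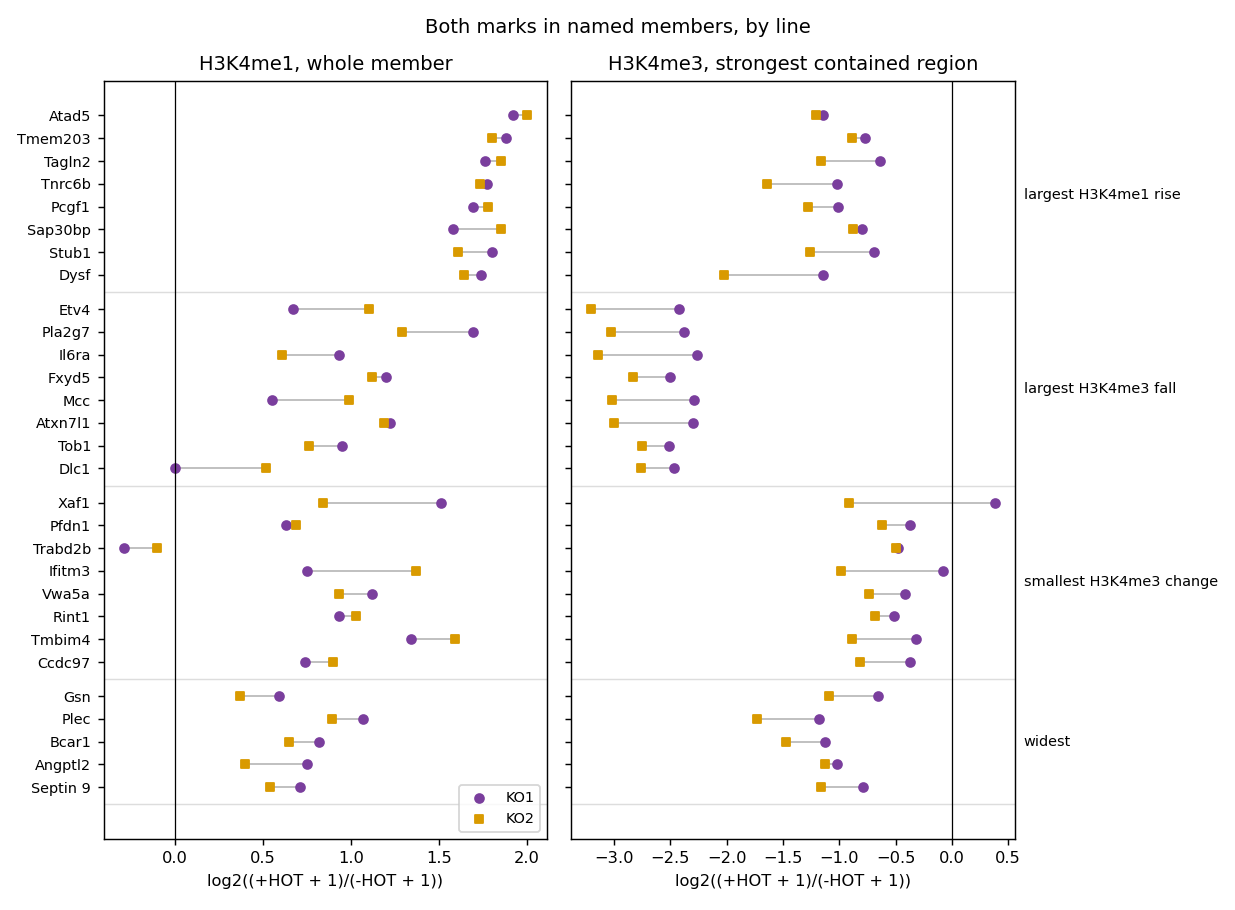
Log2 ratio of +HOT to -HOT in KO1 (circles) and KO2 (squares) for H3K4me1 over the whole member (left) and for H3K4me3 of its strongest contained region (right), 1 row per named member, grouped by the rule that chose it. The lines lie close together for the largest H3K4me1 rises, from 1.58 to 2.00, H3K4me3 of the second group lies between -3.20 and -2.26, and Xaf1 is the row whose H3K4me3 points fall on both sides of 0.

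Of the 5 widest members with at least 50 scaled reads of both marks in both lines, H3K4me1 rose at 2. Rises were called at 14.8% of all tested H3K4me1 regions and at 55.0% of all tested members. Gsn, the actin-severing protein gelsolin, has the widest one (chr2:35110334-35127443, 17110 bp, 17.6% covered). It had 1284 and 1525.5 scaled reads of H3K4me1 in +HOT cells of KO1 and KO2, against 853 and 1184 in -HOT cells (0.48 as mean log2 ratio with a standard error of 0.239, adjusted p = 0.21 from limma). Its H3K4me3 was 356 and 853 in +HOT against 564.1 and 1816.8 in -HOT cells and fell (-0.88, adjusted p = 0.031 from limma). Plec, the cytoskeletal linker plectin, rose in H3K4me1 (15466 bp, 46.6% covered, 0.98), with 1753 and 1580.9 in +HOT against 832 and 850 in -HOT cells. Bcar1, an adaptor of focal adhesions, also rose (12594 bp, 0.74, adjusted p = 0.042 from limma). Angptl2, a secreted angiopoietin-like protein (11958 bp, 0.57), and Septin 9, a subunit of cytoskeletal filaments (11501 bp, 0.62), did not pass. A second member of 4724 bp lies at another start site of Septin 9. Under the same minimum of 50 scaled reads, the smallest covered shares besides that of Gsn were at Mir199b (18.8%), Synj2, an inositol phosphatase (19.7%), the ligand Wnt10b (21.0%) and Synpo (22.2%), and of these H3K4me1 rose at Wnt10b alone (0.86, 471 and 399.1 reads in +HOT against 247 and 230 in -HOT cells). H3K4me3 fell at these 5 members, with mean log2 ratios from -0.88 at Gsn to -2.09 at Wnt10b, and only that of Gsn turned above 0 with the median of all regions set to 0.

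Of the 111 members with 2 or more contained H3K4me3 regions, 64 had 1 region over the read minimum of 20, 23 had 2 or more and 24 had 0. In these 111, H3K4me1 rose at 58 (52.3%), against 765 of 1386 tested members with 1 (55.2%). At Pmp22, a myelin and growth-arrest protein, the strong region of 4792 bp at the TSS had 253 and 1138 scaled reads in +HOT against 621.9 and 2718.8 in -HOT cells. The others, of 272 and 307 bp, had 31.7 and 34.7 in -HOT cells of KO2 and were under the minimum in KO1. Trappc3, a subunit of a vesicle-tethering complex, had 4 regions in 7257 bp. The region at its TSS had 176 and 551 in +HOT against 252.8 and 946.5 in -HOT cells and did not pass (adjusted p = 0.10 from limma). The region at -828 bp had 17 and 56 in +HOT against 33.8 and 195.0 in -HOT cells and fell (adjusted p = 0.00097 from limma), and H3K4me1 of the whole member rose (1.36). Both strong regions of Plec fell, with log2 ratios of -1.49 (KO1) and -2.36 (KO2) for one and of -1.18 and -1.73 for the other. Of the other 7 named members with 3 regions, H3K4me1 rose at Tmem63a (0.95), at Dbp, a clock-controlled transcription factor (0.95), and at Anxa2, the membrane-binding annexin A2 (0.82), and did not pass at Angptl2, given above (0.57), Mapre2 (0.67), Mrgprf (0.56) and Pml, the organizer of PML nuclear bodies (0.56).

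H3K4me1 fell at 14 members, which were mostly narrow and held little H3K4me3. None of them passed the rule for naming the largest falls, which asks for 50 scaled reads of both marks in both lines, and those given here were chosen after their values were seen. At 12 the H3K4me3 region was under the read minimum. Of 65 tested members of at most 1000 bp, 11 fell (16.9%) and 4 rose. Of regions of that width with partial overlap 341 of 2235 fell (15.3%), a share near that of the members. Of the 14, 8 had at most 20 scaled reads in +HOT cells of at least 1 line, and 4 of these in both lines. There they passed the read minimum through -HOT alone, which partly fixes their direction. Nedd4, a ubiquitin ligase, was the widest (4100 bp), with 101 and 158.2 reads of H3K4me1 in +HOT cells of KO1 and KO2 against 187 and 329 in -HOT cells (adjusted p = 0.0081 from limma). The ribosomal protein genes Rps24 (65.0 and 72.7 in +HOT against 111 and 139 in -HOT cells) and Rps14 (24 and 28.2 against 43.0 and 59) were among them, with regions 2521 and 2215 bp downstream of the TSS. So were Apoe, the lipid carrier apolipoprotein E (14 and 28.2 in +HOT against 24 and 47 in -HOT cells), and Hes2, a transcriptional repressor of the Hes family (11 and 17.3 against 27.0 and 40). Hes2 passed through -HOT alone in both lines, and Apoe did so in KO1.

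Genes of 11 lists were spread thinly among the members. Of 12570 genes with promoter H3K4me3 outside the unusable part of chromosome 1, 1482 (11.8%) had a member. The shares were 8 of 37 for fibroblast and matrix genes (21.6%), 6 of 29 for secreted factors of senescent cells (20.7%), 5 of 25 for interferon and antigen presentation genes (20%), 4 of 30 for actin and contractile genes (13.3%), 6 of 42 for cell cycle genes (14.3%), 4 of 39 for receptor tyrosine kinases and related receptors (10.3%), 5 of 52 for mesenchymal and developmental transcription factors (9.62%) and 3 of 52 for ribosomal proteins (5.77%). Epithelial genes had 2 of 17, immune cell genes 1 of 7 and neuronal genes 0 of 22. With so few members a list, these are counts and no list is set apart by them.

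The counts of rises that follow stand beside 55.0% of all members and 14.8% of all H3K4me1 regions by limma. By edgeR they stand beside 1128 of 1497 members and 18.8% of all H3K4me1 regions. Among fibroblast and matrix genes H3K4me1 rose at 3 of 8 (5 by edgeR), with medians of 0.54 in KO1 and 0.56 in KO2. Col1a1, collagen I, had 253 and 292.7 scaled reads of H3K4me1 in +HOT cells of KO1 and KO2, against 91.0 and 103 in -HOT cells (1.48, adjusted p = 0.00024 from limma), over a contained region at -1879 bp from the TSS. At Postn, the matrix protein periostin (0.43), and Fbln1, fibulin 1 (0.20), it did not pass, while H3K4me3 of Fbln1 fell to 25 and 103 in +HOT cells, against 88.5 and 595.0 in -HOT cells (-2.15). Among secreted factors 2 of 6 rose (4 by edgeR), with medians of 0.81 and 0.41. Ereg, the EGF receptor ligand epiregulin, had 426 and 514.5 in +HOT against 171 and 237 in -HOT cells (1.21). Inhba, the activin subunit inhibin beta-A (0.50), and Igfbp6, which binds insulin-like growth factors (0.12), did not pass in H3K4me1, and their H3K4me3 fell (-2.03 and -1.92). Among actin genes 3 of 4 rose (4 by edgeR), with Tagln2 highest and Cnn2, calponin 2, at 1.22, while Myh9, a nonmuscle myosin heavy chain, did not pass (0.62).

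The 5 interferon genes of the list had a higher median H3K4me1 log2 ratio in KO1 than in KO2, though not each of them did. H3K4me1 rose at 0 of 5 by limma (2 at an unadjusted p under 0.05, and 2 by edgeR), with a median log2 ratio of 0.96 in KO1 and -0.06 in KO2. Bst2, an antiviral tether, had 152 and 69.1 scaled reads of H3K4me1 in +HOT cells of KO1 and KO2, against 64.0 and 55 in -HOT cells (adjusted p = 0.052 from limma). Its H3K4me3 was 152 and 115 in +HOT against 177.8 and 541.6 in -HOT cells, close to the -HOT level in KO1 and far below it in KO2. Ifit2, an interferon-induced RNA-binding protein, had 217 and 135.5 of H3K4me1 in +HOT against 113 and 148 in -HOT cells. Gbp2, a guanylate-binding GTPase, had 261 and 271.8 in +HOT against 198 and 170 in -HOT cells, with the higher log2 ratio in KO2 (0.40 in KO1 and 0.67 in KO2). Of the interferon-related members named above but not on the list, Ifitm3 was higher in KO2 (0.75 and 1.37) and Xaf1 in KO1 (1.51 and 0.84). The secreted factors also had a higher median in KO1 (0.81 and 0.41), so this direction was not particular to the interferon list. Each line has 1 library per condition, so the difference between lines was not tested.

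In the other lists, Cdk2, a kinase of the G1 to S transition, had 106 and 182.7 scaled reads of H3K4me1 in +HOT cells of KO1 and KO2, against 44.0 and 74 in -HOT cells (1.27). Foxm1, a regulator of mitotic genes (0.51), and Orc6, of the origin recognition complex (0.30), did not pass, and 2 of 6 cell cycle genes rose (5 by edgeR). The receptor Ddr1, bound by collagen, rose (1.40), and Axl (0.57) and Ephb2 (0.70) did not pass, with 2 of 4 rising in that list (4 by edgeR). Of 5 mesenchymal and developmental factors 0 rose by limma (3 at an unadjusted p under 0.05, and 3 by edgeR), with Tbx4 at 0.70 (adjusted p = 0.053 from limma), Sox6 at 0.55 and Meox1 at 0.12. Tlr4, the receptor for lipopolysaccharide, rose to 404 and 465.5 in +HOT cells, against 163 and 179 in -HOT cells (1.34). Of the epithelial genes Cdh3, P-cadherin, had 369 and 388.2 in +HOT against 182 and 167 in -HOT cells (1.11), with H3K4me3 of 43 and 350 against 188.3 and 1427.7 (-2.07), and Pkp2, plakophilin 2, rose too (0.85). Of 3 ribosomal protein members 2 fell, and Rps19 did not pass (0.37). Of the contained H3K4me3 regions of these lists, each that was tested fell, from 1 of 1 in the immune cell and epithelial lists to 4 of 4 in the fibroblast list, where 90.1% of all tested contained regions and 86.5% of all H3K4me3 regions fell, so these counts set no list apart.

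The TSS assigned to contained regions were poorer in CpG than those of other promoter H3K4me3 regions, mostly in the less covered members. Around the TSS assigned to each contained region, 500 bp to either side, the median observed to expected CpG ratio was 0.618, against 0.737 at other promoter regions. A ratio of at least 0.6 was found in 52.2 against 74.1%. By member, taking the strongest contained region, this share was 69.6% in the most covered members. It was 42.0% in the middle and 41.8% in the least covered ones. In the least covered members that region held its TSS in 22.4%, and 51.3% also overlapped a further H3K4me3 region in part. The TSS measured there is thus mostly not inside the contained region. The median G+C content was 56.8 against 60.5%. Of the contained regions 75.2% were placed by the authors within 1000 bp of a TSS, against 87.8% of the other promoter regions, and 8.24 against 5.23% belonged to genes that are not protein-coding. In KO2, 33.6% were on the authors' list of high H3K4me3 level, 33.4% on that of medium and 33.1% on that of low level, against 42.2, 42.7 and 15.1% of other promoter regions. Of the windows of 300 bases, 55.2% held a GC box against 68.2% at other promoter regions and 66.8% at all of them. The AP1 site was found in 7.38% against 4.12% (all 4.47%), the TATA box in 8.48% against 5.60% (all 5.88%), the ETS core in 27.0% against 22.8% (all 23.3%), the CCAAT box in 33.9% against 35.0% (all 34.9%), the E-box in 8.60% against 9.18% (all 9.07%) and the CRE in 2.75% against 2.89% (all 2.87%). These are shares of promoter regions, each by its assigned TSS, and were not tested.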

How the data were processed

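Chromatin immunoprecipitation with sequencing was done for H3K4me1 and H3K4me3. The authors trimmed the reads with Trim_Galore, mapped them with BWA (mm9), filtered out duplicates and the ENCODE blacklist, and used Macs2 in narrow mode for H3K4me3 and in broad mode for H3K4me1. They then counted reads per region and scaled them to the lowest coverage of a line. The deposited signal is therefore a read count divided by 1.333 (H3K4me3, KO1 -HOT), 1.01 (H3K4me3, KO2 -HOT), 1.1 (H3K4me1, KO2 +HOT) or 1, and all values multiplied back were whole within 0.001. The authors' region lists also name genes and H3K4me3 levels, and the fold changes in the tables were not used.

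Of 122780 H3K4me1 rows, 5615 had no whole-number coordinates or lacked values and were not used, which leaves chr1:19197749-145960211 with no usable H3K4me1 and 531 promoter H3K4me3 regions there unassessed. Table starts were shifted to count from 1. A promoter H3K4me3 region is one the authors place within 3000 bp of a TSS. 23 gene symbols held as dates were replaced from their descriptions. The TSS assigned to a region was the nearest GENCODE TSS of the authors' gene where that gene had a TSS close by. Otherwise it was the nearest TSS of any gene, at any distance. The assigned TSS belonged to the named gene for 86.8% of contained regions.

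limma 3.58.1 (R 4.3.3) was fitted on log2(value + 1) over all regions of a mark in which each line exceeded 20 scaled reads in at least 1 condition, with the line as a block and Benjamini-Hochberg adjustment (threshold 0.05). The pseudocount of 1 understates the change of low regions. The labels give both conditions for each line, which pairs them, and the log2 values of a line deviated together (correlation 0.587 for H3K4me3 and 0.58 for H3K4me1). For H3K4me3 all regions shared 1 standard error (0.391), so the smallest mean log2 ratio called was 0.791. An H3K4me3 p-value thus follows from the size of the mean log2 ratio alone, however far the lines lie apart. For H3K4me1 standard errors were 0.237 to 0.472 and the smallest called was 0.709. The fits were first tested on simulated data in which few regions changed. For H3K4me1 7 of 50 regions with a log2 change of 1, 10 of 49 with -1 and 50 of 50 with 2 were called. For H3K4me3 41 of 50 with 1, 40 of 50 with -1 and 50 of 50 with 2 were called. A member that did not pass is thus not shown to be unchanged. edgeR 4.0.16 on the recovered reads, other pseudocounts and minimums, centring, other containment rules and each line alone were the alternatives. Coordinates were handled with pandas 2.3.3 and sequences with pysam 0.24.0.

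Members named in the text were those with at least 50 scaled reads of both marks in both lines that ranked in the first 8 by H3K4me1 rise, H3K4me1 fall, H3K4me3 fall or smallest H3K4me3 change, the first 5 by width or smallest covered share, and those with 3 or more contained regions. From each gene list the tested members with the lowest, median and highest H3K4me1 change were named without that minimum, and genes the study names where they are members. The members and gene lists were chosen with earlier results of these data known. WT and input libraries were not used. The promoter windows of the other named members are not reported here.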

Additional observations from a re-analysis of the deposited data

Results flagged for a closer look

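The lines moved in opposite directions by more than 0.58 on the log2 scale at 2 of 1497 tested members, and this difference was not tested, as each line has 1 library per condition. At Rassf9 H3K4me1 had a log2 ratio of 0.62 in KO1, with 42.0 scaled reads in +HOT and 27.0 in -HOT cells, and -0.89 in KO2, with 10.9 in +HOT and 21 in -HOT cells. At Nfe2, an erythroid transcription factor, it was -0.69 in KO1, with 40.0 in +HOT and 65.0 in -HOT cells, and 0.59 in KO2, with 127.3 in +HOT and 84 in -HOT cells.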

How the results depend on the processing

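The median H3K4me1 log2 ratio of the members stayed above 0 under each alternative run, and counts of calls moved with the error model. The 823 rises and 14 falls became 95 and 0 with no read minimum (20 fell at an unadjusted p under 0.05). Of all H3K4me1 regions, 4.25% rose and 0.259% fell there. Falls became 2 with more than 50 reads, 9 with limma's trend and 9 with edgeR, beside 1.67, 1.41 and 1.52% of all regions. edgeR called all 823 rises among its 1128, beside 18.8% of all regions. With the median log2 ratio of all regions set to 0, 430 members rose, beside 9.59% of all H3K4me1 regions, and their median was 0.58. Of 1139 contained H3K4me3 regions 148 fell, beside 23.2% of all H3K4me3 regions, 66 rose and the median reversed to 0.08. With 100 bp of H3K4me1 required beyond H3K4me3 on each side, 539 rose and 8 fell. With 200 bp of H3K4me3 allowed outside, 2061 rose, 42 fell, the median was 0.89 and H3K4me3 fell at 2669, from more members. With H3K4me3 within 1000 bp of a TSS, 7 fell. The causes of the other shifts were not tested.

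Without the replicate block, which ignores the pairing by line, 122 members rose and 0 fell (10 at an unadjusted p under 0.05). Of all H3K4me1 regions, 6.37% rose and 0.131% fell in that setting. H3K4me3 then fell at 0 contained regions by limma, against 1026, and at 0.0% of all H3K4me3 regions. Each line alone leaves no residual degrees of freedom, so no test was run, and 925 to 1071 members had a log2 ratio above 0.58 and 17 to 33 one below -0.58, with medians of 0.74 to 0.81. By the same limits 1044 to 1623 contained H3K4me3 regions were lower and 0 to 3 higher, with medians of -1.58 to -1.01.

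Centring on the median of all regions reversed the H3K4me3 mean log2 ratio at 27 named members: Tagln2 0.44, Tmbim4 0.74, Cdk2 0.27, Pmp22 0.07, Xaf1 1.08, Atad5 0.17, Tbx4 0.09, Sap30bp 0.51, Septin 9 0.37, Tnrc6b 0.01, Stub1 0.37, Mapre2 0.09, Pfdn1 0.85, Tmem203 0.51, Angptl2 0.27, Gsn 0.47, Trabd2b 0.85, Trappc3 0.69, Rint1 0.75, Pcgf1 0.20, Ccdc97 0.75, Axl 0.33, Ifitm3 0.81, Bst2 0.12, Bcar1 0.04, Vwa5a 0.76 and Anxa2 0.71. Reads within regions were fewest for H3K4me3 in +HOT cells of KO1 (2441698), a number that depends on the mark as well as on depth. Of the contained regions, 500 were under the read minimum.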
